A study of Bos taurus with 12 samples.

Results

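The corpora lutea of the 4 cows that received saline (control) are described here, out of 12 cows in the series. They were chosen by the treatment in the sample labels, and no level was compared between treatment groups. The cows were non-lactating and of mixed breed, and PGF2α injections had been used to synchronize the cycles of all of them, controls included. Tissue was taken at ovariectomy in the mid-luteal phase (day 10). Saline was given i.m., and the labels give no time between the injection and surgery. Each cow gave 1 library of total RNA from luteal tissue (cow4285, cow6464, cow7367 and cow7514), so the cow is the replicate. The other 8 cows received a luteolytic dose of PGF2α, a prostaglandin that ends the life of the corpus luteum, i.m. and were sampled after 4 h or 12 h (n = 4 each). Only the spread of the same genes within each of those groups is used below. Levels are in TPM, a share of all transcripts that sums to the same total in every library. TPM values correct for transcript length and so can be ranked between genes. Every error is the SD over the 4 cows.

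The corpus luteum forms from the follicle after ovulation and secretes progesterone, the hormone that maintains pregnancy. Its steroidogenic cells are the large luteal cells, which derive from granulosa cells, and the small luteal cells, which derive from theca cells. They import cholesterol or make it, move it into mitochondria, cleave it to pregnenolone and convert that to progesterone. A dense capillary bed with pericytes, fibroblasts and resident immune cells surrounds them, and bovine luteal cells also secrete oxytocin.

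The libraries held 10263310 (cow4285), 20266900 (cow6464), 18572126 (cow7367) and 22600213 (cow7514) expected counts, so cow4285 was the shallowest. Between 13398 and 13545 of the 27270 genes reached 1 TPM in each cow, and 12656 did so in all 4. Transcripts of the mitochondrial genome took 13.4% of TPM in cow4285 and 17.0% to 18.9% in the other cows. Ribosomal protein transcripts took 13.6% in cow4285, 12.7% in cow6464, 10.6% in cow7514 and 10.0% in cow7367. Across the 10370 genes kept for the study of spread, Spearman's rho between pairs of libraries was 0.949 to 0.973, which is a description across genes and not over independent replicates. The closest pair was cow7367 and cow7514, in which 2.02% of genes were at least 2 times apart, and the most distant was cow6464 and cow7367, with 4.51%.

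The labelled tissue was checked by its markers, and the luteal genes described below were abundant, whereas markers of oocyte, erythrocyte and skeletal muscle were low. CYP17A1, the theca enzyme of androgen synthesis that luteal cells lose, was at 0 in all 4 cows, where a count of 0 leaves room for up to 3 counts per library. FSHR, the follicle-stimulating hormone receptor of granulosa cells, was at 2.17 to 3.15 TPM, and AMH at 0.76 to 2.25 TPM. CYP19A1, the granulosa enzyme of estrogen synthesis, had 8.12 TPM in cow4285, 4.83 in cow6464, 12.2 in cow7367 and 9.96 in cow7514. The whole list of 8 granulosa and follicle markers nevertheless summed to 355 to 1144 TPM, of which 5 passed the filter. Most of it came from INSL3, described below, and GJA1, a gap junction protein also made elsewhere, with a mean of 163 TPM. The summed level of the 7 erythrocyte markers in the tables was 2.78 to 4.56 TPM, and that of the 8 skeletal muscle markers 0.66 to 3.29 TPM. Among the 8 oocyte markers, ZP4 and BMP15 were at 0 in every cow, GDF9 did not exceed 0.58 TPM, and OOEP reached 10.4 TPM. The 7 fat cell markers summed to 165 to 264 TPM. That sum was mainly LPL, a lipoprotein lipase that other cells also make, with 181 TPM on average, while CIDEA had 13.0 TPM, and the hormones of fat cells, ADIPOQ and LEP, did not exceed 0.24 TPM. The 11 epithelial markers in the tables summed to 106 to 177 TPM, and the 9 nerve and Schwann cell markers to 149 to 195 TPM. In bulk tissue fewer cells of a type and less RNA per cell cannot be told apart.

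Much of the luteal RNA came from few genes. The 10 most abundant genes took 16.0% ± 2.28 of TPM and the 100 most abundant took 39.6% ± 1.5 (SD, n = 4 each). Between 195 and 233 genes held 50% of all TPM, depending on the cow. Without length correction, on TMM-scaled CPM, the mean was 497 genes. Of the 100, 13 were encoded by the mitochondrial genome and took 16.8% ± 2.41 of TPM. A further 41 encoded ribosomal proteins and took 8.28% ± 1.22. The remaining 46 were led by genes of the luteal cell itself and of its matrix.

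The 6 most abundant transcripts by mean were mitochondrial, and COX1 ranked first in every cow. COX1, a core subunit of cytochrome c oxidase, had 32819 TPM in cow4285, 48588 in cow6464, 47492 in cow7367 and 43479 in cow7514. Its mean was 43095 ± 7194 TPM. COX3, COX2, ATP8, ATP6 and ND3, subunits of the respiratory chain and of ATP synthase, followed with means of 16679 to 13023 TPM. Of the 13 mitochondrial genes, 12 were lowest in cow4285, which was lowest in 20.7% of all genes kept. None was 2 times apart between cows, where 9.28% of all genes kept were. How RNA was selected for the libraries is not given in the sources used here, and its part in these shares was not tested.

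OXT, which encodes the oxytocin precursor, was the most abundant nuclear transcript. It lies on chromosome 13 from 52113970 to 52114880, in the genome build ARS-UCD1.2 that all coordinates here refer to. It had 9065 TPM in cow4285, 8984 in cow6464, 16158 in cow7367 and 11141 in cow7514. The mean was 11337 ± 3365 TPM and the highest cow was 1.80 times the lowest. Thus cow7367 stood above the others, and cow4285 and cow6464 were almost equal. PTGFR, the receptor through which PGF2α acts and a marker of large luteal cells together with OXT, had 1760, 1903, 3205 and 2418 TPM in the same order of cows. It was the 47th most abundant gene and was also highest in cow7367. SERPINE2, a secreted protease inhibitor, was highest in cow7367 as well, with 2645 TPM against 1297 to 1559 in the other cows. SERPINE2 was not among the 6 large luteal cell markers kept, of which 3 (OXT, PTGFR and CYP19A1) were highest in cow7367. The others were INHBA, which encodes an activin subunit, INHA, the inhibin alpha subunit, and RUNX2, a transcription factor. They had means of 12.5, 116 and 55.4 TPM. None of these was highest in cow7367, since 2 were highest in cow4285 and 1 in cow6464.

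APOA1, the main protein of high-density lipoprotein, was the second most abundant nuclear transcript. It had 11381 TPM in cow4285, 8925 in cow6464, 13068 in cow7367 and 8343 in cow7514 (mean 10429 ± 2197). SCARB1, the receptor through which cells take cholesterol from high-density lipoprotein, had a mean of 5412 ± 1001 TPM. TIMP2, an inhibitor of matrix metalloproteinases, had 4636 ± 591 TPM, and GSTA1, a glutathione S-transferase, 4065 ± 208 TPM. GSTA1 was among the steadiest of the abundant genes, with 4253, 3939, 4231 and 3838 TPM in the 4 cows. EEF1A1 and TPT1, which serve translation and cell growth, had means of 6538 and 5986 TPM. BUD23, a methyltransferase of ribosome assembly, was also among the 30 most abundant, at 3788 ± 1022 TPM.

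**Figure D1:**
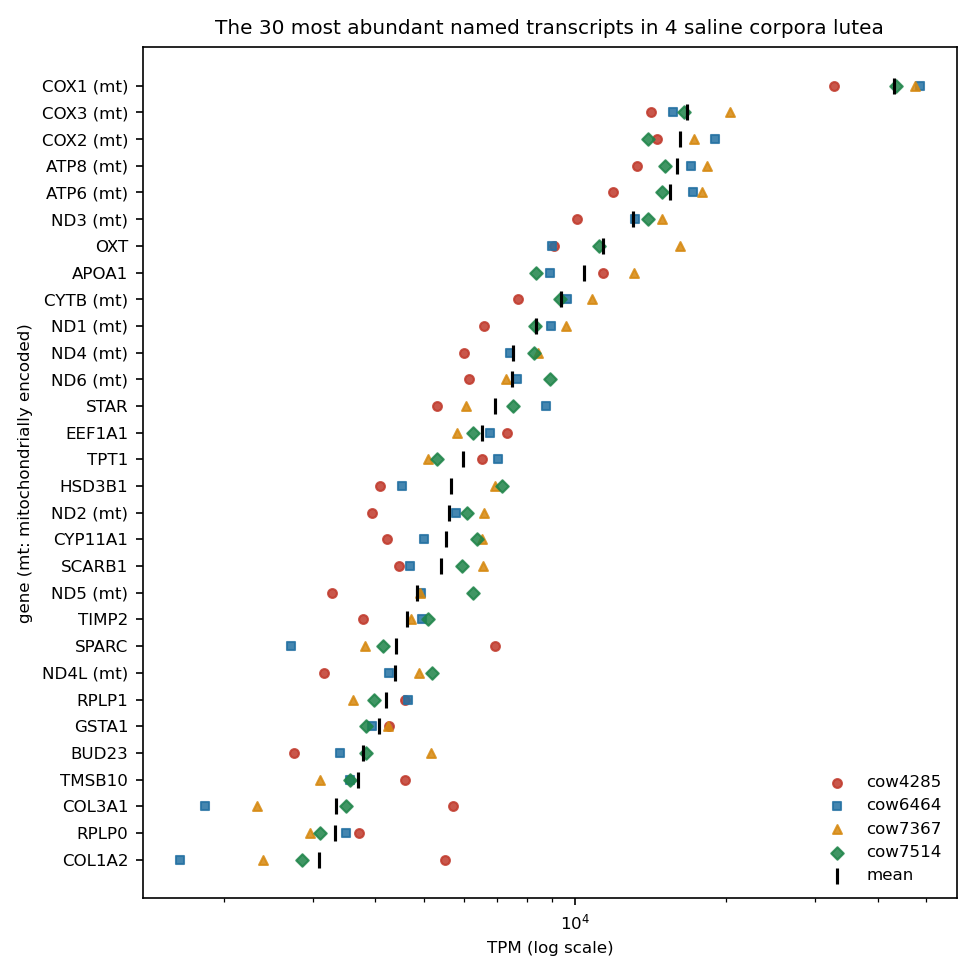
TPM of the 30 most abundant named genes in the 4 saline corpora lutea, on a log axis, with a symbol for each cow and a bar for the mean. The mitochondrially encoded genes (mt) and OXT lead, and the collagen genes COL3A1 and COL1A2 and the matrix gene SPARC show the widest gaps, with cow4285 the highest.

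The genes of progesterone synthesis were abundant. The 8 listed genes took 2.12% ± 0.362 of TPM (SD, n = 4), with summed levels of 16136 TPM in cow4285, 21282 in cow6464, 22733 in cow7367 and 24551 in cow7514. STAR, which carries cholesterol into mitochondria, had 5318 TPM in cow4285, 8752 in cow6464, 6052 in cow7367 and 7527 in cow7514. HSD3B1, which converts pregnenolone to progesterone, had 4090, 4510, 6917 and 7144 TPM in the same order. CYP11A1, which cleaves the cholesterol side chain, had 4223, 4991, 6518 and 6388 TPM. For HSD3B1 and CYP11A1, cow7367 and cow7514 were the 2 highest, whereas STAR was highest in cow6464. FDX1, the electron donor of CYP11A1, had a mean of 2368 ± 340 TPM, and FDXR, which reduces it, 472 TPM. None of the 8 genes was 2 times apart between cows, a count near the 9.28% of all genes kept. Their median SD between cows was 0.23 on the log2 scale, against 0.16 for all genes kept. Cow4285 was lowest in 5 of the 8, and it was lowest in 20.7% of all genes kept.

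Steroid enzymes outside this path were less abundant. HSD17B12, an enzyme of fatty acid elongation and steroid reduction, led the list of side branches with 497 ± 98.7 TPM. HSD11B1, which regenerates active glucocorticoid, had 9.68 TPM in cow4285, 7.81 in cow6464, 34.3 in cow7367 and 31.2 in cow7514. It was the only gene of this list at least 4 times apart, by a ratio of 4.35. Of the 13 list members in the tables, 7 did not pass the filter on low values.

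The share of cholesterol synthesis and uptake was close to that of progesterone synthesis on TPM, and the order of the 2 turned on TMM-scaled CPM (3.20% against 2.78%). The 28 measured genes, all of which passed the filter, had a summed level of 1.92% ± 0.225 of TPM. Abundant members besides SCARB1 were HMGCS1 (2461 ± 320 TPM), which makes the precursor of mevalonate, and MSMO1 (1853 ± 214 TPM), which acts late in the path. Of the 28 genes 14 were highest in cow7367 and 11 in cow6464, and 15 were lowest in cow4285. The background shares of all genes were 19.4% and 17.9% for the highest and 20.7% for the lowest. INSIG1 and STARD4 were 2 times apart, which is 2 of 28 and near the 9.28% of all genes kept. INSIG1, which holds back sterol synthesis when sterols are plentiful, had 131, 346, 148 and 201 TPM, with cow6464 the highest. STARD4, a cholesterol carrier, had 13.0, 16.6, 18.02 and 31.2 TPM, with cow7514 the highest.

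Lipid droplet genes were led by PLIN2, the perilipin that coats droplets, at 445 TPM in cow4285, 498 in cow6464, 645 in cow7367 and 597 in cow7514. PLIN3, another perilipin, had a mean of 107 TPM, and LIPE, hormone-sensitive lipase, 36.7 TPM. PLIN1, PLIN4, PLIN5 and CIDEC did not pass the filter, and none exceeded 1.73 TPM. No gene among the 7 kept was 2 times apart, a count near the 9.28% of all genes kept.

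Other receptors of luteal cells were less abundant than PTGFR. LHCGR, the receptor of luteinizing hormone, had 103 TPM in cow4285, 117 in cow6464, 120 in cow7367 and 80.1 in cow7514. PGRMC1, a progesterone-binding membrane protein, had a mean of 284 TPM, while PGR, the nuclear progesterone receptor, had 2.20 to 2.55 TPM and did not pass the filter. OXTR, the oxytocin receptor, did not exceed 0.03 TPM. NR5A1, the factor that drives steroid enzyme genes, was steady at 133 ± 9.42 TPM. Its relative NR5A2 had 123, 128, 207 and 178 TPM. HIF1A, the oxygen-sensitive factor, was the steadiest of the 4 most abundant factors at 503 ± 13.5 TPM.

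Genes of the matrix and stroma formed the other abundant group. The 14 listed fibroblast and collagen genes had a summed level of 1.81% ± 0.872 of TPM. SPARC, a collagen-binding protein, had 6917 TPM in cow4285, 2718 in cow6464, 3809 in cow7367 and 4147 in cow7514. COL3A1, type III collagen, had 5702, 1829, 2324 and 3495 TPM, and COL1A2, type I collagen, 5495, 1632, 2387 and 2860 TPM. Both collagens had the same order of cows as SPARC, with cow4285 above the other 3. MGP, a matrix protein that inhibits calcification, had a mean of 2963 ± 866 TPM.

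Heat shock genes were abundant, and their median SD of 0.15 on the log2 scale was below the 0.16 of all genes kept. HSPE1 and HSPA8, chaperones of mitochondria and cytosol, had means of 1496 and 1420 TPM, and the sum of the 17 heat shock genes was 7376 to 7979 TPM. None of the 14 kept was 2 times apart, where 9.28% of all genes kept were. Nor was any of the 23 kept genes of hypoxia and glycolysis, among them GAPDH (2078 ± 320 TPM) and ENO1. The median SD of the hypoxia and glycolysis genes was 0.20. The 28 antioxidant genes kept summed to 11847 to 13448 TPM together with the member that did not pass. Of the 28 antioxidant genes 5 were 2 times apart, where 9.28% of all genes kept were. Without cow7367 2 were, and 4 or 5 were without another cow, a count that cannot rise when a cow is left out. Their median SD was 0.19. The most abundant of the 5 was GPX3, the secreted glutathione peroxidase, with 689 TPM in cow4285, 353 in cow6464, 1041 in cow7367 and 270 in cow7514.

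The spread between cows was next described over the 10370 genes with a mean of at least 5 TPM and at least 50 expected counts. It was measured by the SD between cows of log2(TPM + 1) and by the ratio of the highest to the lowest cow on TPM + 0.1. The median SD was 0.16 on the log2 scale and the median ratio was 1.31. The coefficient of variation had a median of 12.1%, and 10.9% when the part expected from counting was taken out. Of these genes 179 had a highest cow at least 4 times the lowest (1.73%), and 51 at least 10 times. A gene that met this ratio is called varying below, and since such genes were picked for their spread, no test was made on it. The number fell with each cow left out, where the ratio of a gene over fewer cows cannot be larger. It was 90 without cow6464, 115 without cow7367, 128 without cow4285 and 162 without cow7514.

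The steadiest genes with a mean of at least 50 TPM were NUDT21, YIPF5, EIF4G2, ERLEC1, OTUD5 and PEBP1. NUDT21, a subunit of the complex that sets the 3′ ends of mRNAs, had a mean of 55.5 TPM and an SD of 0.01 on the log2 scale. EIF4G2, a translation initiation factor, had 580 ± 6.20 TPM, and PEBP1, an inhibitor of RAF kinase, 579 ± 7.46 TPM. For NUDT21, YIPF5, ERLEC1 and OTUD5 the coefficient of variation beyond counting was 0. That measure is set to 0 when the spread is below the part expected from counting. Since these genes were picked for their small SD, the value does not show that they do not vary.

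**Figure D2:**
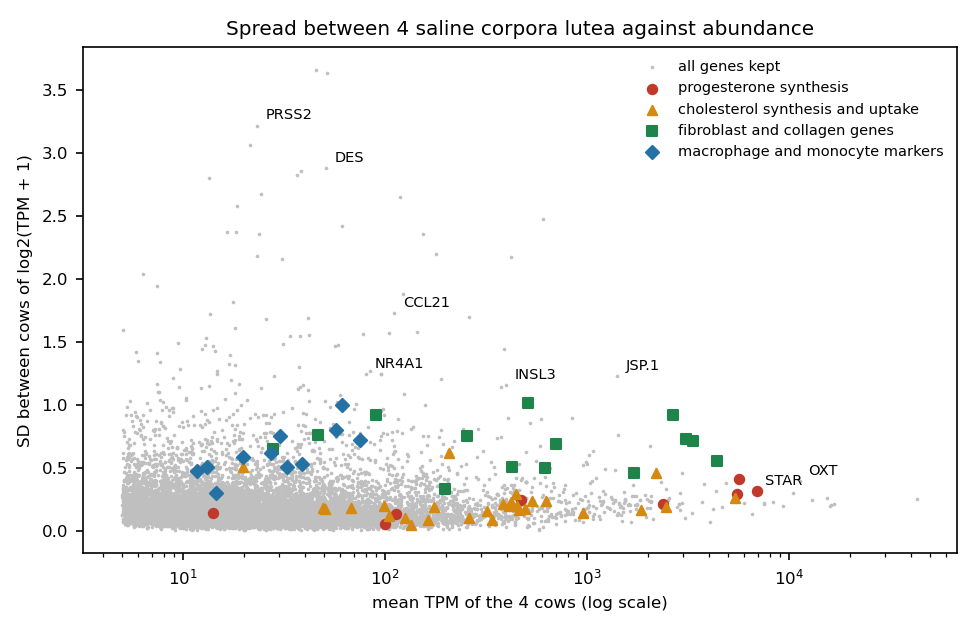
SD between the 4 cows of log2(TPM + 1) against the mean TPM (log axis) for the 10370 genes kept. Most progesterone and cholesterol genes lie below the fibroblast and collagen genes of like abundance, and most macrophage markers lie high at low abundance.

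Cow4285 had the highest levels of stromal genes. Of the 14 fibroblast and collagen genes, 13 were highest in cow4285, which was highest in 37.9% of all genes kept (30.1% on the TMM scale below). Likewise 11 of 11 pericyte and smooth muscle markers, 11 of 14 endothelial markers and 17 of 20 cell cycle genes were highest in it. These 4 counts of the highest cow were identical on TMM-scaled CPM, a scaling of the counts that does not use transcript length. Counts of genes 2 times apart, given below on TPM, were partly lower on that scale. They were 13 for fibroblast and collagen genes, 6 for pericyte and smooth muscle markers, 2 for endothelial markers and 3 for cell cycle genes. As the filter was a mean over these same cows, a scarce marker such as DES could pass it through its highest cow. Cow4285 was also the shallowest library, with the lowest mitochondrial share, and the part of depth in these values was not tested.

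COL1A1, the other chain of type I collagen, had 4959 TPM in cow4285, 1072 in cow6464, 1966 in cow7367 and 2654 in cow7514. Its highest cow was 4.63 times the lowest. FN1, fibronectin, had 1121, 214, 315 and 382 TPM in the same order, a ratio of 5.24. COL5A1, a minor fibrillar collagen, had 187, 43.1, 52.9 and 75.4 TPM. In all 3 genes cow4285 was highest and cow6464 lowest. Together, 13 of the 14 listed genes were at least 2 times apart, where 9.28% of all genes kept were. At least 4 times apart were 3 of 14, where the background share was 1.73%. Without cow4285 2 of the 14 were 2 times apart, against 10 without cow6464, 13 without cow7367 and 12 without cow7514. Such a count cannot rise when a cow is left out, and the matching share of all genes was not computed. The summed level was 30570 TPM in cow4285, 10561 in cow6464, 14284 in cow7367 and 16884 in cow7514.

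A further 3 matrix genes with cow4285 highest were among the 30 that varied most. TNC, tenascin C, had 42.3 TPM in cow4285 and 3.99 to 5.52 in the other cows. THBS1, thrombospondin 1, which restrains vessel growth, had 487 TPM against 83.2 to 95.9. MFAP5, a microfibril protein, had 46.6 TPM against 5.37 to 13.4. The other 3 cows lay close together in TNC and THBS1, and for TNC they lay near the minimum of 5 TPM.

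DES, which encodes the muscle filament desmin, was the second most varying named gene. It had 195 TPM in cow4285, 2.5 in cow6464, 1.82 in cow7367 and 4.50 in cow7514. All cows but cow4285 were below the minimum of 5 TPM, so DES passed the filter only through cow4285. The ratio of count rates between the highest and the lowest cow was 103, with an exact 95% interval of 77.8 to 141 that covers counting error only. ACTA2, smooth muscle actin, had 1011, 364, 246 and 461 TPM, and CNN1, calponin 1, 43.6, 8.04, 7.79 and 12.7 TPM. The gap in DES was thus far wider than in the other markers, whose order of cows otherwise had cow4285 first. Of the 11 kept markers of this group 8 were 2 times apart, where 9.28% of all genes kept were. Without cow4285 1 was, and 6 to 8 were without another cow. The skeletal muscle markers ACTA1, CKM and MYH2 did not exceed 0.25 TPM in any cow.

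The endothelial markers differed less. KDR, a receptor of vascular endothelial growth factor, had 108 TPM in cow4285, 80.9 in cow6464, 92.4 in cow7367 and 81.8 in cow7514. VWF, von Willebrand factor, had 118, 36.6, 37.9 and 52.7 TPM. PLVAP, a protein of fenestrated capillaries, did not follow them, with 12.0, 2.68, 14.3 and 4.99 TPM and cow7367 the highest. Of the 14 markers 3 were 2 times apart, where 9.28% of all genes kept were. Without cow4285 1 was, and 2 or 3 were without another cow. Cell cycle genes were low in all cows, with means of 54.3 TPM for PCNA and 19.5 TPM for UBE2C. Of the 20 kept, 4 were 2 times apart, beside the same share of all genes kept. None was without cow4285, and 2 to 4 were without another cow.

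Lymphatic vessel markers had another order. CCL21, the chemokine that draws lymphocytes and dendritic cells into lymphatic vessels, had 17.0 TPM in cow4285, 87.6 in cow6464, 39.3 in cow7367 and 301 in cow7514. FLT4, the lymphatic growth factor receptor, had 6.83, 7.75, 7.51 and 19.3 TPM and was also highest in cow7514. PDPN and LYVE1, also found on other cells, were highest in cow7367. The list summed to 524 TPM in cow7514 and 310 TPM in cow7367, of which CCL21 alone gave 301 and 39.3 TPM. The lead of cow7514 in this sum thus rested on CCL21. CCL21 varied within the treated groups too, with a ratio of highest to lowest cow of 552 among the 4 cows at 4 h and 276 among those at 12 h.

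**Figure D3:**
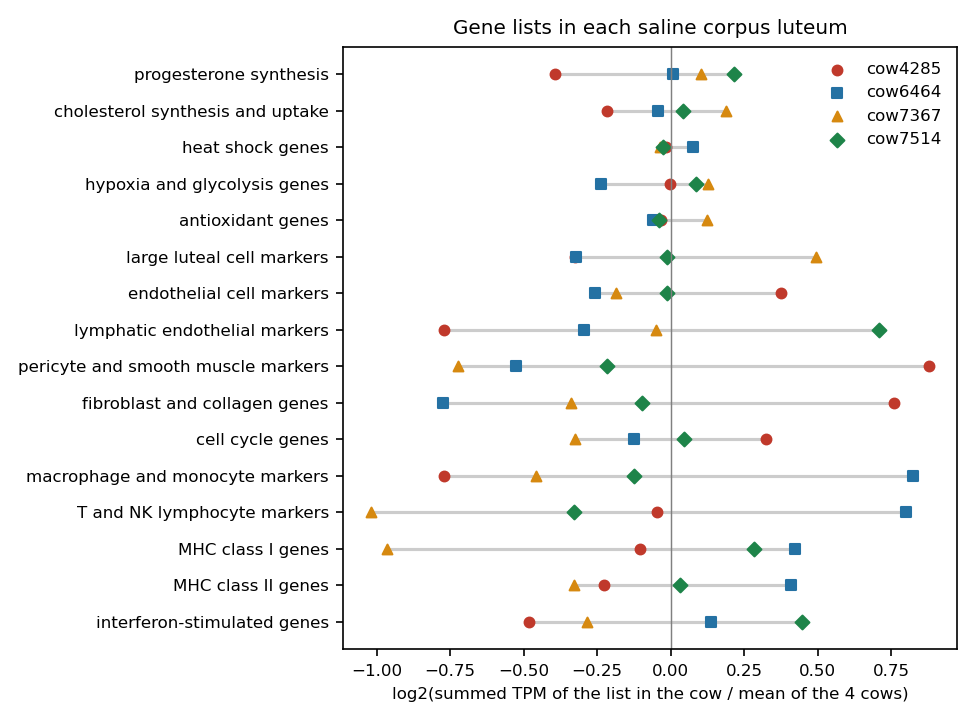
Summed TPM of 16 gene lists in each cow, as the log2 ratio to the mean of the 4 cows. Heat shock and antioxidant genes lie closest to 0 and cow4285 is lowest for progesterone and cholesterol genes, whereas it is highest for stromal lists. Cow6464 is highest for macrophage, lymphocyte and MHC lists, and cow7514 for lymphatic and interferon lists. CCL21 gives most of the lymphatic sum in cow7514.

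Cow6464 had the highest levels of immune cell markers. All 11 kept macrophage and monocyte markers were highest in it, as were 8 of 9 kept T and NK lymphocyte markers. So were 7 of 7 MHC class II genes kept from the list. The background was 17.9% of all genes kept (25.9% on TMM-scaled CPM). The filter was a mean over these same cows, so a scarce marker could pass it through its highest cow. Markers that did not pass are not in these counts, and their order of cows is not given here. The 3 counts were again identical on TMM-scaled CPM. C1QA, C1QB and C1QC encode the complement protein C1q, which macrophages make. C1QC had 22.7 TPM in cow4285, 126 in cow6464, 42.8 in cow7367 and 53.7 in cow7514. CD68, a lysosomal protein of macrophages, had 17.0, 56.2, 18.7 and 28.9 TPM. Of the 11 markers 10 were 2 times apart, where 9.28% of all genes kept were. Without cow6464 2 were, and 8 to 10 were without another cow. The summed level of the list was 228 TPM in cow4285, 688 in cow6464, 283 in cow7367 and 357 in cow7514.

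The T cell receptor subunit gene CD3E had 13.3 TPM in cow4285, 25.3 in cow6464, 4.92 in cow7367 and 7.64 in cow7514. CD4, the coreceptor of helper T cells, had 2.43, 12.9, 2.18 and 3.62 TPM. Its mean of 5.28 TPM passed the filter only through cow6464. All 9 kept lymphocyte markers were 2 times apart, where 9.28% of all genes kept were. Of the 9, 8 were lowest in cow7367, which was lowest in 33.0% of all genes kept. Without cow6464 5 were 2 times apart, and 7 or 9 were without another cow. Lymphocyte transcripts remained scarce, since the 17 markers summed to 54.2 to 191 TPM. JCHAIN, the joining chain of secreted antibodies, had 5.46, 25.8, 4.30 and 18.4 TPM and was the only B and plasma cell marker that passed the filter.

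Chemokines that interferon gamma induces varied with the same cow on top. CXCL9, CXCL10 and CXCL11 lie side by side on chromosome 6 between 90856295 and 90904851. CXCL9 had 15.5 TPM in cow4285, 158 in cow6464, 20.3 in cow7367 and 31.7 in cow7514. CXCL11 had 7.51, 88.5, 11.8 and 17.6 TPM, and CXCL10 36.5, 153, 35.8 and 55.1 TPM. UBD, a ubiquitin-like protein that inflammatory signals induce, had 16.1, 99.6, 12.7 and 21.0 TPM. In these 4 genes cow6464 lay apart from the other 3 cows. LTB, lymphotoxin beta, had 3.99, 43.0, 6.11 and 15.2 TPM. Of the 8 neutrophil markers 2 passed the filter, and MPO, which neutrophil precursors make, was at 0 in every cow.

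The interferon-stimulated genes had a different order from these chemokines. Of the 17 kept, 12 were highest in cow7514 and 4 in cow6464, where cow7514 was highest in 24.8% of all genes. On TMM-scaled CPM these counts were 9 and 6, and cow7514 was highest in 17.1% of all genes. IFI6 had 89.2 TPM in cow4285, 157 in cow6464, 92.6 in cow7367 and 274 in cow7514. ISG15, a ubiquitin-like modifier, had 40.4, 92.0, 47.9 and 104 TPM. Of the 17 genes 5 were 2 times apart, where 9.28% of all genes kept were. Without cow6464 3 were, and 4 without cow7514. OAS1X was the only one at least 4 times apart, with 2.93 TPM in cow7367 and 19.8 in cow7514.

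Most class I genes of antigen presentation were lowest in cow7367. JSP.1, a class I heavy chain gene, had 1519 TPM in cow4285, 1776 in cow6464, 322 in cow7367 and 1999 in cow7514. B2M, the light chain of class I molecules, had 1008, 2018, 685 and 1989 TPM. BOLA-NC1, a nonclassical class I gene, had 214, 581, 116 and 588 TPM. The feature named BoLA had 187, 713, 81.9 and 570 TPM. Of the 10 genes of the class I list, which includes peptide transport and processing, 8 were lowest in cow7367, which was lowest in 33.0% of all genes kept. Of the same 10, 7 were 2 times apart, where 9.28% of all genes kept were. Without cow7367 3 were, and 6 or 7 were without another cow. BOLA, a class I feature at another position on the same chromosome, had 1175, 1311, 890 and 557 TPM and was lowest in cow7514 instead. Class I genes are highly polymorphic and near-identical in sequence, so reads can be split between them, and their levels as given for each feature are uncertain.

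Among class II genes, 2 had no reads in 1 cow. BOLA-DQA5 (chromosome 23, 25636255 to 25643878) was at 0 TPM in cow4285 and had 66.5 TPM in cow6464, 59.1 in cow7367 and 27.6 in cow7514. BOLA-DQB (chromosome 23, 25607502 to 25622150) was also at 0 in cow4285 and had 48.7, 4.43 and 13.1 TPM in the other cows. Set against the limit of 3 counts, cow6464 was at least 158-fold higher than cow4285 in BOLA-DQA5 and at least 140-fold higher in BOLA-DQB. By contrast CD74, the invariant chain that all class II molecules need, had 793 TPM in cow4285, 1070 in cow6464, 658 in cow7367 and 869 in cow7514. BOLA-DRA, another class II gene, had 124, 240, 146 and 187 TPM. Cow4285 therefore lacked reads at these 2 DQ features while other class II genes were present in it. A further feature with a DQ name, BLA-DQB, had a mean of 193 TPM over the 4 control cows. Its ratio of highest to lowest cow was 3.09, so it was present in cow4285 as well. Among all 12 cows, cow4285 was the only cow below 0.1 TPM at BOLA-DQA5 and at BOLA-DQB. DQ genes are polymorphic and have close copies, so their levels are uncertain as well.

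Of the varying features, 11 were under 0.1 TPM in at least 1 control cow, and 4 of them had a gene symbol. PRSS2 (chromosome 4, 106071878 to 106075654), a trypsinogen gene, was the most varying named gene. It had 0 TPM in cow4285 and cow7514, 41.9 in cow6464 and 51.5 in cow7367. Of the 12 cows 5 were under 0.1 TPM, and the other 7 had between 23.0 and 58.7 TPM, with no cow in between. Trypsinogen genes form a family of close copies, so reads can be split between them. NPS (chromosome 26, 47036215 to 47039465), annotated as neuropeptide S, was at 0 in cow6464 and had 43.7 TPM in cow4285, 37.3 in cow7367 and 66.4 in cow7514. The counts behind NPS were 47 in cow4285, 75 in cow7367 and 160 in cow7514, and cow7514 was at least 47.8-fold higher than cow6464. The feature ENSBTAG00000002009 was under 0.1 TPM in 6 of the 12 cows.

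**Figure D4:**
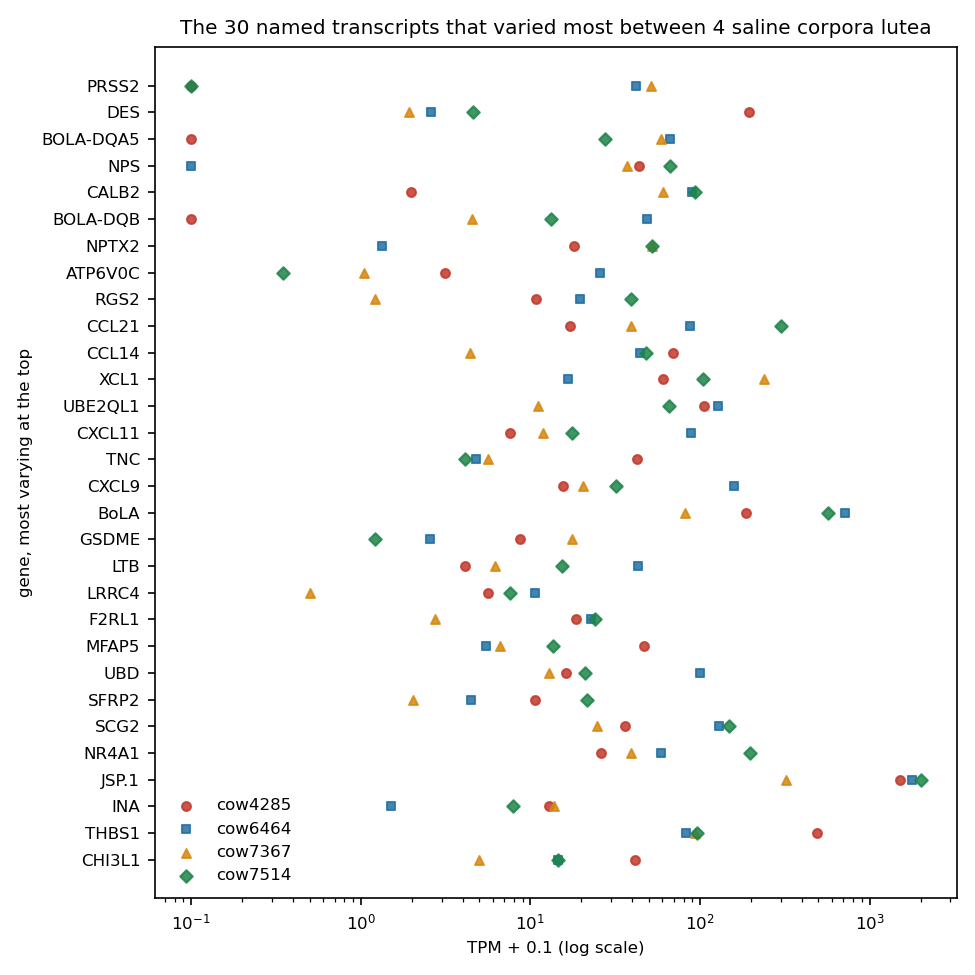
TPM + 0.1 of the 30 named genes with the largest SD of log2(TPM + 1), on a log axis, with a symbol for each cow. PRSS2, BOLA-DQA5, NPS and BOLA-DQB have cows at 0 TPM (drawn at 0.1), and DES stands out with cow4285 near 195 TPM and the other cows under 5 TPM.

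Several signalling and neuronal genes were also among those that varied most. CALB2, the calcium-binding protein calretinin, had 1.88 TPM in cow4285, 89.1 in cow6464, 60.9 in cow7367 and 93.2 in cow7514. NPTX2, a neuronal pentraxin, had 18.1, 1.23, 52.3 and 51.8 TPM, with cow6464 the lowest. SCG2, secretogranin II of secretory granules, had 36.2, 129, 24.8 and 148 TPM. XCL1, a lymphocyte chemokine, had 60.4, 16.7, 238 and 104 TPM, an order unlike that of the lymphocyte markers. F2RL1, a receptor that trypsin-like proteases activate, had 18.5, 22.6, 2.65 and 24.0 TPM. CCL14, another chemokine, had 69.6, 44.3, 4.33 and 48.1 TPM, and in both genes cow7367 was the lowest.

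The NR4A orphan receptors, which respond within minutes to hormones and growth factors, had the same cow on top. NR4A1 had 26.2 TPM in cow4285, 58.9 in cow6464, 39.0 in cow7367 and 198 in cow7514. NR4A2 had 3.80, 5.28, 3.31 and 19.4 TPM, and NR4A3 3.40, 7.65, 2.20 and 17.0 TPM. Not all immediate early genes had that order. FOS had 29.4, 12.9, 13.4 and 18.7 TPM, and JUNB had 54.0 to 66.4 TPM. Of the 20 immediate early genes kept, 8 were highest in cow7514, where 24.8% of all genes kept were (7 and 17.1% on TMM-scaled CPM), and 6 in cow4285, where 37.9% were. The 23 in the tables summed to 976 TPM in cow4285, 829 in cow6464, 762 in cow7367 and 1154 in cow7514. Of the 20, 10 were 2 times apart, where 9.28% of all genes kept were. Without cow4285 4 were, and 9 were without any other cow.

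INSL3, a peptide hormone of theca and small luteal cells, had 871 TPM in cow4285, 163 in cow6464, 395 in cow7367 and 163 in cow7514. It ranked 31st by spread among named genes, with a ratio of 5.35. Of the 5 small luteal cell and theca markers kept, 3 were highest in cow4285 (INSL3, NR2F2 and PDGFRA), STAR in cow6464 and LHCGR in cow7367. INSL3 also varied within the treated groups, with ratios of 13.4 among the cows at 4 h and 6.47 among those at 12 h.

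**Figure D5:**
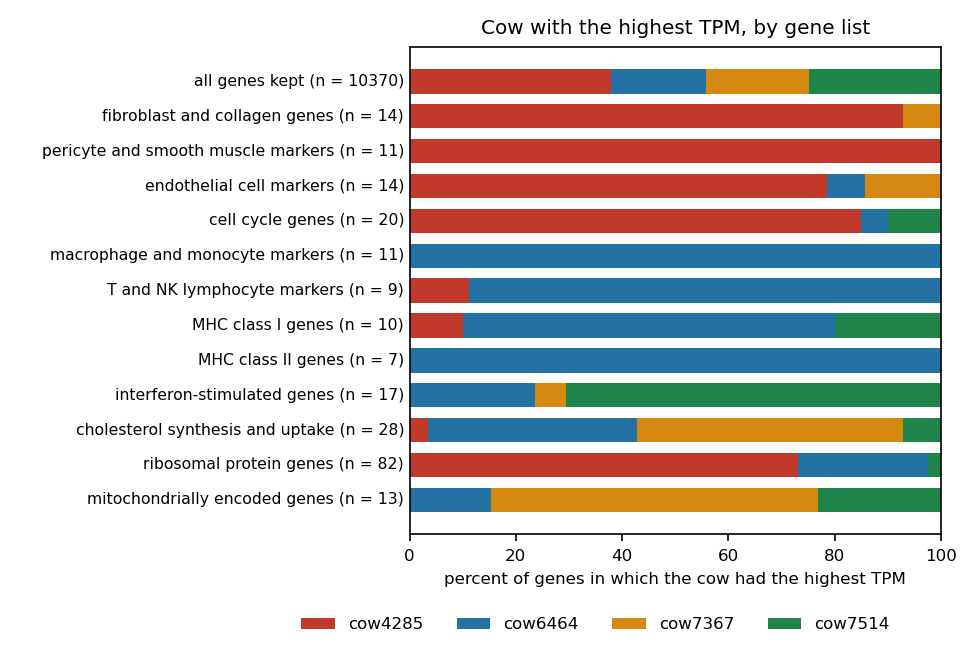
Percent of the genes of each list in which each cow had the highest TPM, with all 10370 genes kept at the top (n, number of genes). Cow4285 fills the stromal lists and most ribosomal protein genes, cow6464 the macrophage, lymphocyte and class II lists, cow7367 most mitochondrial genes, and cow7514 most interferon-stimulated genes.

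Among the 179 varying genes, cow6464 was highest in 71 (39.7%), cow4285 and cow7514 in 40 each (22.3%) and cow7367 in 28 (15.6%). Cow7367 was lowest in 81 (45.3%), cow6464 in 39 (21.8%), cow4285 in 38 (21.2%) and cow7514 in 21 (11.7%). Since these genes were picked for the ratio between their highest and lowest cow, these shares are a description. Of the 179, 57 (31.8%) carried only an Ensembl identifier, as did 509 of the 10370 genes kept (4.91%). The largest SD in any feature was that of ENSBTAG00000009656, which had 0 TPM in cow4285, 0.30 in cow6464, 106 in cow7367 and 76.2 in cow7514. ENSBTAG00000019018 followed, with 73.7, 0, 132 and 0.76 TPM. These features had no position in the tables, and their function is not given in the sources used here. Of the 122 varying genes with a position, 9 lay on chromosome 23, where the MHC lies. That was 3.10% of the 290 genes kept on that chromosome, and 1.24% of all placed genes varied. Chromosomes 27, 4, 21 and 26 had shares of 3.26% to 3.51%, so chromosome 23 did not stand alone. Varying genes had a median effective length of 1426 bases, against 2130 for all genes kept.

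The same genes spread widely in cows that the choice had not used. Of the 179 genes, 139 passed the filter among the 4 cows at 4 h after PGF2α, and 37 of them (26.6%) were again at least 4 times apart, where 1.45% of all genes kept in that group were. Among the 4 cows at 12 h, 125 passed and 37 (29.6%) were 4 times apart, where the share of all genes was 1.41%. Passing the filter in a treated group depends on the level there, so these shares cover the genes that passed and not all 179. Their median SD was 0.59 and 0.66 on the log2 scale in the 2 groups, against 0.19 and 0.20 for all genes kept. Among features without a symbol, 18 of 37 and 18 of 33 were again 4 times apart, and among named genes 19 of 102 and 19 of 92 were. In all, 18 genes varied in all 3 groups, and 8 of them had a symbol, namely BOLA-DQB, CCL21, CCL14, OAS1X, EFEMP1, INSL3, MRO and ACTA2. EFEMP1, a matrix protein, and MRO were named after their values were seen. In contrast, DES had ratios of 3.81 and 3.78 within the treated groups, and JSP.1 of 2.38 and 3.29.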

How the data were processed

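Bulk RNA-seq was made from the corpus luteum of 12 cows, 4 of which (saline) are described. The submitters' processing notes name STAR 2.5, RSEM 1.3 and the build ARS-UCD1.2. The authors deposited, per cow, 27270 genes with expected counts (RSEM's estimate of reads, which need not be whole), TPM and FPKM. FPKM were not used. Of the genes, 7506 have only an Ensembl identifier. Genes with near-identical copies share reads, and where a name had several rows, list members are the row with the highest mean.

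Means and SDs of TPM were computed for each gene. Spread was taken over genes with a mean of at least 5 TPM and 50 expected counts, with pseudocounts of 1 (log2) and 0.1 (ratios). Intervals of count rates are exact conditional binomial intervals (95%), and they and the limit of 3 counts cover counting error only. Library totals of 10263310 to 22600213 expected counts set the precision. No test between groups was made, since there was 1 group. TMM scaling used edgeR 4.0.16 on rounded expected counts. The calculation of the spread measures was tried on simulated counts. Their background spread was below the common biological coefficient of variation of 21.7% that edgeR gave for these cows. The trial thus checked the calculation only. Alternatives were TMM-scaled CPM, no mitochondrial genes, other filters and pseudocounts, medians, and each cow left out.

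Genes named were drawn from the 30 most abundant and 30 most varying with a symbol, the 6 steadiest, and members of 39 gene lists. From each list these were up to 4 most abundant and 3 most varying members. Not all of these genes and lists are named in the text. Markers at or near 0 are named as tissue checks. The lists and the choice of these cows were made with earlier results of these data known. Listed names not in the tables, such as TIMP1, HBA1 and BOLA-DRB3, were not analysed here. Intervals came from scipy 1.17.1 and tables from pandas 2.3.3 (Python 3.11.15). No sequence is printed, since the references used here hold gene names only. A gene withheld from the text is not reported here.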

Additional observations from a re-analysis of the deposited data

Results flagged for a closer look

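Among the 161 genes and list sums examined, 18 (11.2%) had 1 cow far from the other 3. The measure was Dixon's, the gap between that cow and the nearest other cow divided by the whole range. It was set against its critical value for 4 samples, which normally distributed values pass by chance in about 1 of 20 groups. TPM were used without a log, and every flagged cow was the highest, so that rate need not hold here. Many of the genes were picked for their spread in these same values, so the share is not a rate over all genes. The critical value serves here as a mark and not as a test. Cow4285 stood apart and highest in DES (0.986), THBS1 (0.969), TNC (0.960), EFEMP1 (0.879), CNN1 (0.863) and PDGFRA (0.845), which are genes of muscle filaments, contraction, matrix and fibroblasts. Cow6464 stood apart and highest in UBD (0.905), CXCL9 (0.886), CXCL11 (0.875), CD4 (0.865), CXCL10 (0.836) and C1QB (0.834), which are genes of immune cells or of their signals, and in the summed heat shock genes (0.831). The feature named ATP6V0C (0.890), which lies on chromosome 8 from 17434137 to 17435288, was also highest in cow6464, with 25.6 TPM against 0.25 to 3.04 TPM. Cow7367 stood apart and highest in PGRMC1 (0.841) and in the summed antioxidant genes (0.868). Cow7514 stood apart and highest in FLT4 (0.926) and NR4A2 (0.877).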

How the results depend on the processing

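TMM-scaled CPM, which has no length correction, gave shares of 11.6% for the 10 most abundant genes, 30.4% for the 100 most abundant, 2.78% for progesterone synthesis, 3.20% for cholesterol genes and 4.25% for fibroblast and collagen genes, and the mean number of genes holding 50% was 497 (214 on TPM). Without mitochondrially encoded genes these values were 8.05%, 29.4%, 2.55% and 2.32% for the first 4 shares, and 388.5 genes. With each cow left out in turn the same shares ranged from 15.1% to 16.9%, 39.1% to 40.2%, 2.01% to 2.29%, 1.83% to 2.01% and 1.39% to 2.06%, and the number of genes from 207 to 220.0. The number of varying genes was 294 with a minimum mean of 1 TPM, 83 with 20 TPM and 616 with no TPM filter and a mean of at least 10 expected counts. With each cow left out it ranged from 90 to 162. Of the 30 most varying named genes, 28 were among the 30 highest on TMM-scaled CPM, 17 by the coefficient of variation less counting error, and 19 to 24 with each cow left out. The leave-one-out and TMM values for gene lists were chosen after seeing the data. The left-out cow given first for a list is the one whose removal lowered the count most. A list's count of genes 2 times apart cannot rise when a cow is left out. The matching share of all genes was not computed. No paired analysis was possible because the labels give the cows no shared replicate numbers and 1 group is described. A count of 0 allows up to 3 counts, so low genes are less certain in cow4285, the shallowest library.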
